A study of Sus scrofa with 11 samples.

Results

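Hyaluronan is a long, unbranched sugar polymer of the skin matrix, and 10 genes that make it, cut it, bind it or sense it were followed here in each wound of a diabetic and a non-diabetic minipig. They are the synthases HAS1, HAS2 and HAS3, the hyaluronidases HYAL1 and HYAL2, the receptor CD44, the binding partners VCAN, TNFAIP6 and HAPLN1, and HMMR. The genes were taken by symbol from the 30376 genes of the deposited expression values. The symbols found 9 of the 10, and HAS2 was found by its gene identifier, because the values list it under the symbol SHAS2 with the description hyaluronan synthase 2.

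Full-thickness punch wounds on the backs of female Yucatan minipigs were collected on day 10, and poly-A RNA of each wound gave 1 library. The diabetic group held 7 wounds of a minipig made diabetic with streptozotocin, a toxin of the insulin-producing beta cells, at 6 months of age, whose insulin was stopped a week before wounding. The non-diabetic group held 4 identical wounds of a minipig without streptozotocin, whose age is not given in the sources used here. With 1 animal in each group, diabetes and the animal cannot be told apart, and the p-values below measure only the spread between wounds. The values are FPKM, fragments scaled to gene length and library size, which can be compared between genes as levels per length. The library size behind them was 0.854 times the reads on genes in non-diabetic wound 1 and 1.18 times in diabetic wound 2. It was therefore not the plain read total. In bulk tissue, fewer cells of a type and less RNA per cell cannot be told apart.

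Hyaluronan synthases sit in the plasma membrane and extrude the growing chain from UDP-glucuronic acid and UDP-N-acetylglucosamine. Hyaluronidases and cell surface proteins of the CEMIP family cut the chain, and the fragments are taken up and degraded in lysosomes. Versican, a large proteoglycan, and TSG-6, the product of TNFAIP6, organise hyaluronan into the loose, hydrated matrix that forms in early granulation tissue, and CD44 anchors that matrix to keratinocytes, fibroblasts and leukocytes. In skin, hyaluronan is known for its place in the early wound matrix and in the spaces between keratinocytes of the living epidermis.

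HAS1 and HAS3 lie on the same pig chromosome, and the bases before their annotated starts are shown because HAS1 had the largest ratio of group means and HAS3 the largest fold between its highest and lowest wound, as described further on. Each line is 250 bases of Sscrofa11.1 read 5′ to 3′ on the strand of the gene, HAS1 from the plus strand at chr6:58303024-58303273 and HAS3 from the minus strand at chr6:17870332-17870581. Capitals mark matches to 6 short motifs searched on both strands, the TATA box core TATAAA, the GC box GGGCGG, the AP-1 motif TGANTCA, the E-box CACGTG, the cAMP response element TGACGTCA and the NF-kappa-B motif GGGNNTTCC.
HAS1: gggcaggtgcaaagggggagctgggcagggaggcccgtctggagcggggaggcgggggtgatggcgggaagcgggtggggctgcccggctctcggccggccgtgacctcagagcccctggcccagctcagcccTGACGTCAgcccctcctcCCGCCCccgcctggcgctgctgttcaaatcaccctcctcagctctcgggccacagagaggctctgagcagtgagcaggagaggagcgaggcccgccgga
HAS3: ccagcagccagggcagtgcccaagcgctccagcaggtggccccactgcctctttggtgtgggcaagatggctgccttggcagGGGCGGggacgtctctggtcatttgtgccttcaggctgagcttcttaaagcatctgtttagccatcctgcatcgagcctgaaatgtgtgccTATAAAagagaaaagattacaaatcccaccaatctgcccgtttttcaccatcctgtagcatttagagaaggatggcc
The HAS1 window held 1 cAMP response element, which 1.63% of the 20664 windows of protein-coding genes also held, and 1 GC box. The HAS3 window held 1 TATA box core, found in 10.4% of windows, and 1 GC box, found in 44.4%. The AP-1 motif, the E-box and the NF-kappa-B motif, held by 5.48%, 6.16% and 6.09% of windows, had no match in either. A match is a description of letters, and no binding was measured.

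Between 28314785 and 40168372 reads per wound fell on genes. Diabetic wound 4 and non-diabetic wound 1 stood apart from the other 9 wounds on the first principal component, which held 44.5% of the variance, with scores of 76.0 and 72.2 against -38.9 to -7.00. The summed level of the 12 keratinocyte markers found of 15 listed, none of them at 0, was 57.2 and 346 FPKM in these wounds and 2043 to 7284 FPKM in the others, and that of 8 neutrophil markers was 240 and 414 against 3918 to 12672 FPKM. In the other 9 wounds the neutrophil sum rested mostly on S100A8, S100A9 and S100A12, which reached 3349, 3887 and 5348 FPKM. FCGR3A of the same list had 102 to 195 FPKM in diabetic and 64.1 to 113 FPKM in non-diabetic wounds. The sum therefore does not by itself measure the share of neutrophils. No marker of either list was called between the groups except KRT15, a basal keratin, which was higher in diabetic wounds. Diabetic wound 3 held skeletal muscle RNA, with a summed marker level of 1765 FPKM against 6.14 to 11.1 FPKM in the rest. Of 12 macrophage markers, 3 were called higher in diabetic wounds, and the summed level without LYZ, a lysozyme gene that held most of the sum in several wounds, ran from 756 to 1723 FPKM there and from 492 to 915 FPKM in non-diabetic wounds. With LYZ it was 1694 to 3341 FPKM against 973 to 2196 FPKM. Of 6 adipocyte markers 1 was called, LEP, the leptin gene, with 0 to 0.407 FPKM in diabetic and 0.579 to 2.35 FPKM in non-diabetic wounds, through which alone it passed the filter. Of the 6, 5 had fitted differences below 0, and the median log2 fold change over all 6 was -0.99. The most abundant of them, FABP4, had 260 to 633 FPKM against 156 to 262 FPKM and was not called. The part of these cells in the results was not tested.

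Averaged over both groups, CD44 had the highest level of the 10 genes, followed by VCAN, TNFAIP6, HYAL2, HYAL1, HAS3, HAS1, HAS2 and HMMR, with HAPLN1 last. The order was not fixed in every wound. CD44 exceeded VCAN in 9 of the 11 wounds, VCAN exceeded TNFAIP6 in 7, TNFAIP6 exceeded HYAL2 in 9 and HYAL2 exceeded HYAL1 in all 11. HYAL1 was above HAS3 in 8 wounds, HAS3 above HAS1 in 8, HAS1 above HAS2 in 9, and HAS2 above HMMR in 4. The CD44, VCAN and TNFAIP6 ranges overlapped widely, as did those of the 3 synthases.

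No hyaluronan gene passed the test between diabetic and non-diabetic wounds after adjustment over all genes. Of the 13956 genes with at least 0.5 FPKM in at least 4 libraries, limma on log2(FPKM + 0.5) called 188 higher and 231 lower in diabetic wounds, which is 3.00% in all. A call needed an adjusted p below 0.05 and a log2 difference of 0.5 or more in size. Of the 9 hyaluronan genes that passed the filter, 0 were called, and 2 of them, HAS1 and VCAN, had an unadjusted limma p under 0.05, as had 18.4% of all genes tested. The exact two-sided permutation test of mean log2 values over the 330 assignments of 11 wounds to groups of 7 and 4, which cannot give a p below 0.00303, put VCAN alone of the 10 genes under 0.05, as it did 18.1% of all genes tested. These p-values over 10 genes are unadjusted. In 0 of the 10 genes were the groups free of overlap, against 5.65% of the genes tested. The median log2 fold change of the 9 genes was 0.32, beside 0.01 over all genes tested.

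**Figure D1:**
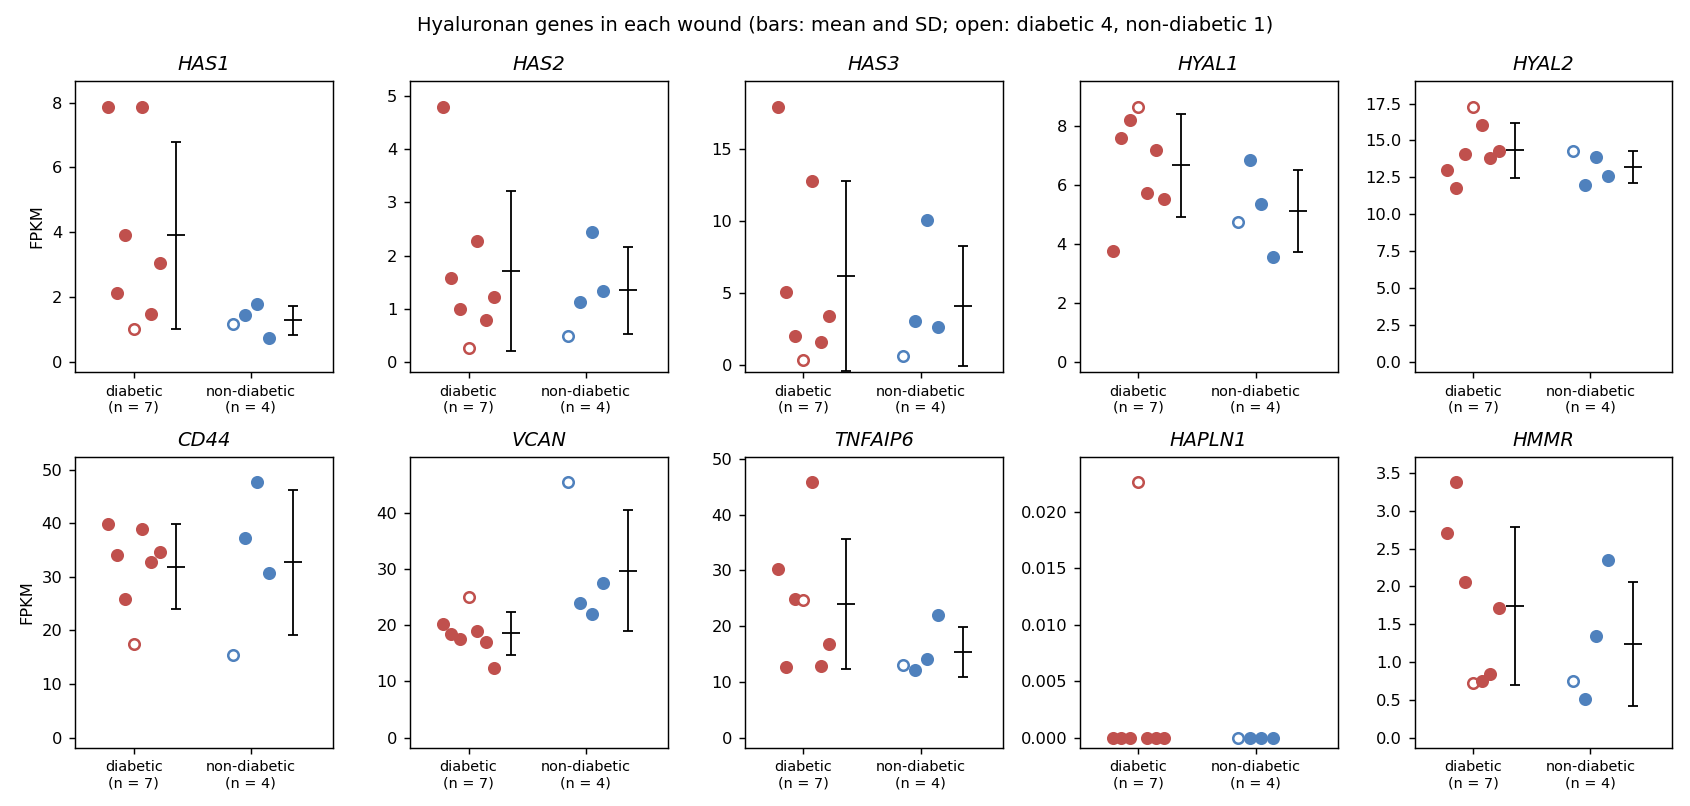
FPKM of each of the 10 hyaluronan genes in the 7 diabetic wounds (red) and 4 non-diabetic wounds (blue), 1 point per wound on a linear axis for each gene, with the mean and SD of each group in black except for HAPLN1. Open points are diabetic wound 4 and non-diabetic wound 1, which have the lowest HAS3 and CD44 values of their groups and the highest VCAN values. The groups overlap in every panel.

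HAS1, a synthase that cytokines induce in fibroblasts, had the largest ratio of group means. Its level in diabetic wounds ran from 1.02 FPKM in wound 4 through a median of 3.04 to 7.88 FPKM in wound 5, with 7.86 FPKM in wound 1. Non-diabetic wounds 1 to 4 had 1.16, 1.43, 1.80 and 0.743 FPKM. Thus 5 of the 7 diabetic wounds exceeded every non-diabetic wound, while wounds 4 and 6 lay within the non-diabetic range.

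The mean of HAS1 was 3.90 ± 2.87 FPKM (SD, n = 7) against 1.28 ± 0.445 FPKM (SD, n = 4), or 3.04 times as high. On the log2(FPKM + 0.5) scale the difference was 1.07 (SE 0.46, 95% interval 0.07 to 2.07) with an adjusted p of 0.239 by limma. The exact permutation p was 0.0667. Without the pair of wounds that stand apart the log2 difference was 1.26 and the exact permutation p over 84 assignments was 0.0595. Diabetic wound 4 held 68 reads of HAS1 and non-diabetic wound 4 held 61, so the low end of this range rests on few reads.

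HAS2, the main synthase of fibroblasts and of development, did not separate the groups. Diabetic wounds had 0.266 to 4.80 FPKM with a median of 1.22, and non-diabetic wounds had 0.483, 1.13, 2.45 and 1.32 FPKM. All non-diabetic values fell inside the diabetic range. The log2 difference was 0.12 (SE 0.46), and its 95% interval of -0.88 to 1.12 leaves room for a level from 0.543 to 2.17 times the non-diabetic one. An antisense gene, LOC106509979, overlaps HAS2 over 5691 bases, and its own level was 0.108 to 0.321 FPKM. The library kit marks strand, but whether the counting used it is not given in the sources used here.

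HAS3, the synthase known from keratinocytes, had the largest fold between its highest and lowest wound, 46.0, of the 9 genes that passed the filter, where HAS2 was next with 18.1 and HAS1 with 10.6. It ran from 0.390 FPKM in diabetic wound 4 through a median of 3.42 to 17.9 FPKM in diabetic wound 1. Non-diabetic wounds had 0.638, 3.06, 10.1 and 2.65 FPKM. Both groups held wounds with a level under 1 FPKM and wounds above 10 FPKM, so the groups overlapped almost fully.

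Within groups the SD of log2(FPKM + 0.5) of HAS3 was 1.46, larger than for 98.3% of genes tested. The corresponding percentiles of HAS1 and HAS2 were 94.8 and 94.7, of HMMR 92.9, of TNFAIP6 90.5 and of CD44 87.8, whereas HYAL2 stood at 19.4. The log2 difference of HAS3 was 0.32 (SE 0.81, 95% interval -1.46 to 2.10), an interval that reaches from 0.365 to 4.30 times the non-diabetic level. HAS3 shares 282 bases with TANGO6 on the same strand, a gene at 0.763 to 2.04 FPKM, and HAS3 reads numbered 114 to 5901.

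The makeup of synthase RNA was also compared by wound as a description. The summed FPKM of the 3 synthases was 1.67 to 30.6 with a median of 7.67 in diabetic wounds and 2.28 to 14.4 with a median of 5.17 in non-diabetic wounds. HAS3 was the largest share in 5 of 7 diabetic and 3 of 4 non-diabetic wounds, and HAS1 in the remaining wounds, which were diabetic 3 and 4 and non-diabetic 1. HAS1 made up 24.2% to 60.8% of the sum in diabetic wounds, median 37.9%, and 12.5% to 50.9% in non-diabetic wounds, median 20.6%. The share of HAS2 was 9.94% to 20.4%, median 15.9%, against 17.1% to 28.1%, median 20.7%. Without both wounds that stand apart, HAS1 made up 24.2% to 56.3% of the sum in diabetic wounds and 12.5% to 25.5% in non-diabetic wounds, and the ranges still overlapped.

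**Figure D2:**
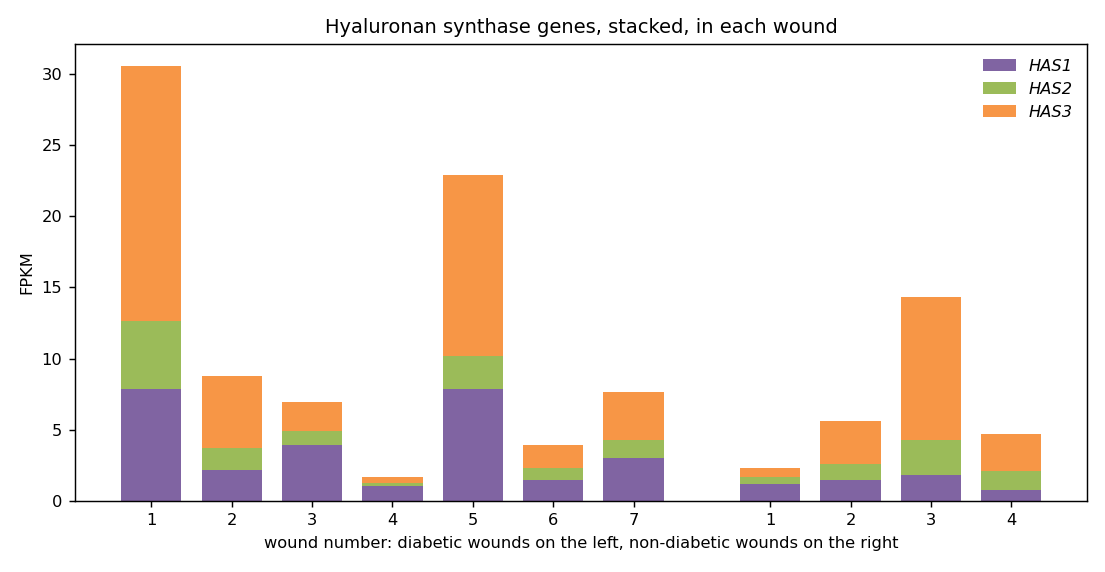
Stacked FPKM of HAS1, HAS2 and HAS3 in each wound, with diabetic wounds 1 to 7 on the left and non-diabetic wounds 1 to 4 on the right. The sum was 30.6 FPKM in diabetic wound 1 and 1.67 FPKM in diabetic wound 4, a wider gap within a group than between the group medians of 7.67 and 5.17 FPKM.

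HAS2 and HAS3 went up and down together across diabetic wounds. Over the 7 diabetic wounds Pearson's r of log2(FPKM + 0.5) between HAS2 and HAS3 was 0.97 (exact permutation p = 0.000198, Benjamini-Hochberg adjusted p = 0.00714 over 36 pairs of genes), and Spearman's rho was 1 (exact permutation p = 0.000397, adjusted p = 0.0143). Leaving out diabetic wounds 1 and 4, the farthest from the median of HAS2, gave r = 0.99. Without wound 4 alone the adjusted p was 0.05 at the smallest exact permutation p that 6 wounds allow, 0.00139. A pair that reached this p by itself could not pass there. These wounds share an animal, and the keratinocyte marker level varied among them.

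This was the only pair of the 36 with an adjusted p under 0.05, although 8 pairs had an unadjusted exact permutation p under 0.05. HAS1 followed HAS3 with r = 0.89 and HAS2 with r = 0.87 (adjusted p = 0.0619 for both), and r fell to 0.63 and 0.69 without diabetic wounds 1 and 5, the farthest from the median of HAS1. Spearman's rho was 0.82 for both pairs (adjusted p = 0.176 by exact permutation). HYAL1 ran opposite to HAS2 with r = -0.87 (adjusted p = 0.0619), which became -0.50 without diabetic wounds 1 and 4, and rho was -0.75 (adjusted p = 0.217). HYAL2 and HMMR had r = -0.85 (adjusted p = 0.0619), which became -0.71 without diabetic wounds 2 and 4, and rho was -0.89 (adjusted p = 0.0886).

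Among all genes tested, those whose log2 levels most resembled HAS3 over the 11 wounds were AREG, with r = 0.99, and HAS2, with r = 0.97. AREG encodes amphiregulin, a ligand of the epidermal growth factor receptor. Its level was 85.8 and 54.2 FPKM in diabetic wounds 1 and 5, 27.4 FPKM in non-diabetic wound 3 and 0.104 FPKM in diabetic wound 4, which are also the wounds where HAS3 was highest and lowest. Without the wounds that stand apart, r with HAS3 was 0.99 over 9 wounds. AREG was likewise the second most similar gene to HAS2, with r = 0.97. HAS1 was most like LETM1, a mitochondrial inner membrane protein, with r = 0.94, and PLAU, the urokinase plasminogen activator, with r = 0.93. These r values are the highest picked from 13956 genes and describe these wounds only.

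HYAL1 and HYAL2, the hyaluronidases of somatic tissue, are neighbours on chromosome 13. HYAL1, a lysosomal enzyme, had 3.75 to 8.64 FPKM in diabetic wounds, median 7.17, and 4.73, 6.85, 5.35 and 3.53 FPKM in non-diabetic wounds. The lowest diabetic value was in wound 1, where all 3 synthases were high, and the highest in wound 4, where they were lowest. The log2 difference of HYAL1 was 0.34 (SE 0.22, 95% interval -0.14 to 0.82).

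HYAL2, a membrane-anchored enzyme that makes the first large fragments, had the smallest spread within groups of the 9 hyaluronan genes tested. It had 11.8 to 17.3 FPKM in diabetic wounds, median 14.1, and 14.3, 11.97, 13.9 and 12.6 FPKM in non-diabetic wounds. The log2 difference of 0.11 (SE 0.11) had a 95% interval of -0.12 to 0.34, which allows at most 1.27 times the non-diabetic level. HYAL2 shares 1497 bases with TUSC2 on the same strand, a gene at 5.70 to 9.03 FPKM. How reads in the shared bases were counted is not given in the sources used here. The genes most like HYAL1 over 11 wounds were BTD, with r = 0.91, and LOC100517372, with r = 0.90. Those most like HYAL2 were ZIC1 and LOC110257335, both with r = 0.92.

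CD44, the main cell surface receptor of hyaluronan, had nearly the same mean in both groups. Diabetic wounds had 17.4 to 39.9 FPKM with a median of 34.1, and non-diabetic wounds had 15.3, 37.3, 47.7 and 30.7 FPKM. In each group the wound with few keratinocyte markers had the lowest value. The log2 difference was 0.03 (SE 0.29, 95% interval -0.61 to 0.67), from 0.654 to 1.60 times the non-diabetic level.

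The direction of the CD44 difference was not stable, and without the wounds that stand apart it was -0.15. CD44 followed HAS3 across diabetic wounds with r = 0.87 (adjusted p = 0.0619 by exact permutation) and r = 0.74 without diabetic wounds 1 and 4, and rho was 0.93 (adjusted p = 0.0607). Over the 11 wounds it was most like PPP1R3B and C10H1orf106, each with r = 0.97. Gene-level values do not resolve the standard and variant isoforms of CD44.

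VCAN, which encodes versican, was the only one of the 9 tested genes with a lower mean log2 level in diabetic wounds. Diabetic wounds had 12.4 to 25.0 FPKM with a median of 18.5, and the non-diabetic wounds had 45.4, 23.9, 22.0 and 27.5 FPKM. Of the 7 diabetic wounds, 6 were below every non-diabetic wound, and diabetic wound 4 lay among the non-diabetic values.

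The mean of VCAN was 18.5 ± 3.78 FPKM (SD, n = 7) against 29.7 ± 10.7 FPKM (SD, n = 4), a ratio of 0.624. On the log2 scale VCAN differed by -0.63 (SE 0.21, 95% interval -1.09 to -0.18), with an adjusted p of 0.125 by limma and an exact permutation p of 0.00909. Without non-diabetic wound 1 the difference was -0.41. Without both wounds that stand apart it was -0.49, and the exact permutation p over 84 assignments was 0.0119. With the summed keratinocyte marker level as a covariate, chosen after seeing the data, it was -0.56 with an adjusted p of 0.0658 by limma. Over all 24 alternatives the adjusted p by limma ran from 0.0544 to 0.640, the highest with replicate number as a fixed block. In that block fit, diabetic wounds numbered above 4 had no partner and did not enter the group difference. Over the 11 wounds VCAN was most like LOC110260368, with r = 0.96, and ZNF333, with r = 0.95. Versican isoforms, which differ in their chondroitin sulfate regions, cannot be told apart at gene level.

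**Figure D3:**
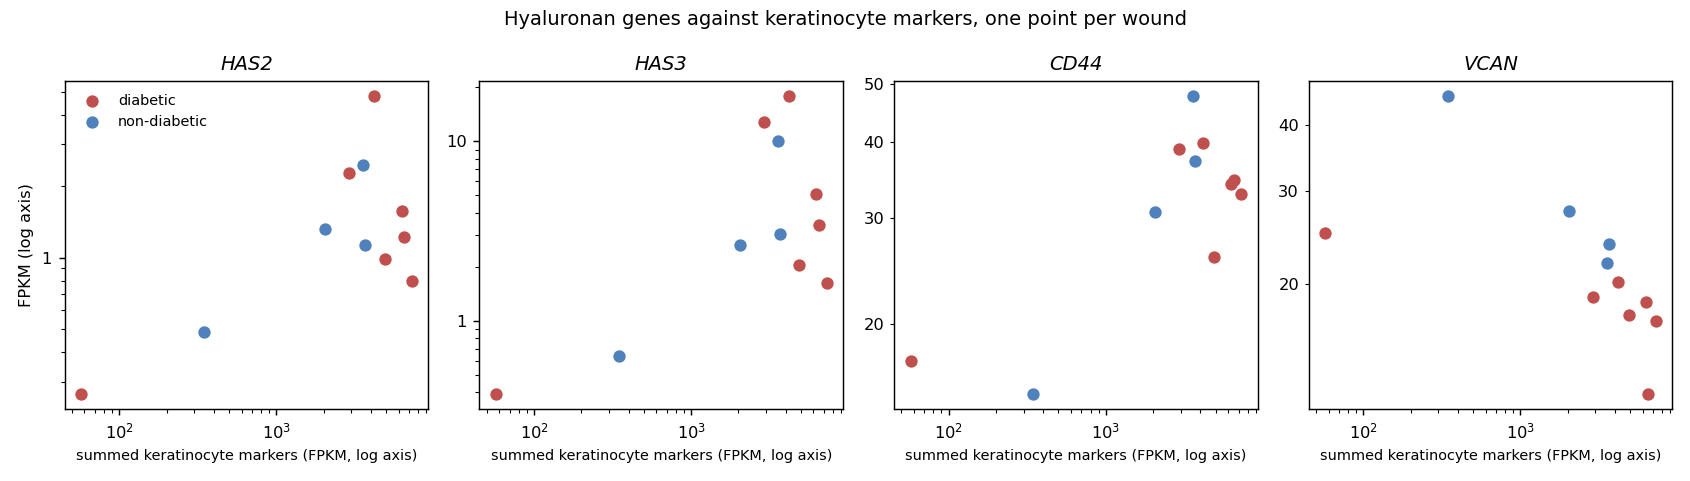
FPKM of HAS2, HAS3, CD44 and VCAN against the summed FPKM of 12 keratinocyte markers, both on log axes, 1 point per wound, diabetic in red and non-diabetic in blue. The wounds with 57.2 and 346 FPKM of these markers have the lowest HAS2, HAS3 and CD44 levels of their groups and the highest VCAN levels, and no single line joins the other 9 wounds.

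In the 2 wounds with few keratinocyte markers HAS2 was 0.266 and 0.483 FPKM, HAS3 was 0.390 and 0.638 FPKM, and CD44 was 17.4 and 15.3 FPKM. Each of these was the lowest value of its group. VCAN was the highest of its group there, at 25.0 and 45.4 FPKM, and HYAL2 was too, at 17.3 and 14.3 FPKM. Among the other 9 wounds HAS3 ranged from 1.62 to 17.9 FPKM, and its highest values fell in diabetic wounds 1 and 5, where the markers summed to 4179 and 2915 FPKM, within a range of 2043 to 7284 FPKM over these 9 wounds. The summed level of 12 fibroblast markers, of which 0 were called, was 52331 FPKM in diabetic wound 4 and 67874 FPKM in non-diabetic wound 1. In the other 9 wounds it was 19966 to 54968 FPKM. The part of keratinocytes or fibroblasts in these differences was not tested.

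TNFAIP6 encodes TSG-6, an inflammation-induced protein that transfers heavy chains of inter-alpha-inhibitor onto hyaluronan. Diabetic wounds had 12.6 to 45.8 FPKM with a median of 24.7, and non-diabetic wounds had 13.1, 12.2, 14.2 and 22.0 FPKM. Of the diabetic wounds, 4 were above every non-diabetic wound and none was below all of them. The log2 difference was 0.53 (SE 0.33, 95% interval -0.19 to 1.25), with an adjusted p of 0.429 by limma and an exact permutation p of 0.170. The genes most like TNFAIP6 were ORMDL1, with r = 0.95, and TBX2, with r = 0.94, over 11 wounds.

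HAPLN1, a link protein that clamps versican and aggrecan to hyaluronan, was at or near 0 in all wounds. It had 4 reads in diabetic wound 4, or 0.0226 FPKM, and 0 reads in the other 10 wounds. A count of 0 allows up to 3 reads, which is 0.0121 to 0.0209 FPKM in these libraries and covers counting error only. HAPLN1 did not pass the filter, and no fold change is given. Among the other link protein genes, HAPLN4 had 17.7 to 56.75 FPKM in diabetic and 19.6 to 46.6 FPKM in non-diabetic wounds. HAPLN4 shares 77 bases with TM6SF2 on the same strand, a gene at 0.622 to 2.53 FPKM. Whether all reads counted for HAPLN4 come from its own RNA was not tested. HAPLN3 had 3.65 to 8.58 FPKM in diabetic and 5.62 to 10.8 FPKM in non-diabetic wounds. Neither HAPLN3 nor HAPLN4 was called.

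HMMR encodes RHAMM, which binds hyaluronan at the cell surface and microtubules at the mitotic spindle. Diabetic wounds had 0.725 to 3.38 FPKM with a median of 1.72, and non-diabetic wounds had 0.751, 0.517, 1.34 and 2.36 FPKM. The diabetic wounds split into 4 with at least 1.72 FPKM and 3 with at most 0.837 FPKM, and the non-diabetic wounds lay across both. The log2 difference was 0.34 (SE 0.38, 95% interval -0.50 to 1.18). HMMR shares 272 bases with NUDCD2 on the opposite strand, a gene at 6.56 to 9.76 FPKM.

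Over the 11 wounds HMMR was most like DLGAP5 and E2F8, each with r = 0.97, a spindle protein and a cell cycle transcription factor. Across 16 mitosis genes listed for comparison, r with HMMR ran from 0.80 for AURKA to 0.95 for BUB1. Of these 16 genes, 0 were called, their median log2 fold change was 0.44, and all 16 had fitted differences above 0, as had 52.3% of all genes tested. Because all 16 followed HMMR closely across the wounds, their shared sign does not count as 16 separate results. An unadjusted limma p under 0.05 was found for 3 of the 16, or 18.8%, which is near the 18.4% of all genes tested. The highest level among them was that of CCNB1, cyclin B1, with 4.61 to 19.6 FPKM in diabetic and 3.30 to 11.7 FPKM in non-diabetic wounds.

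**Figure D4:**
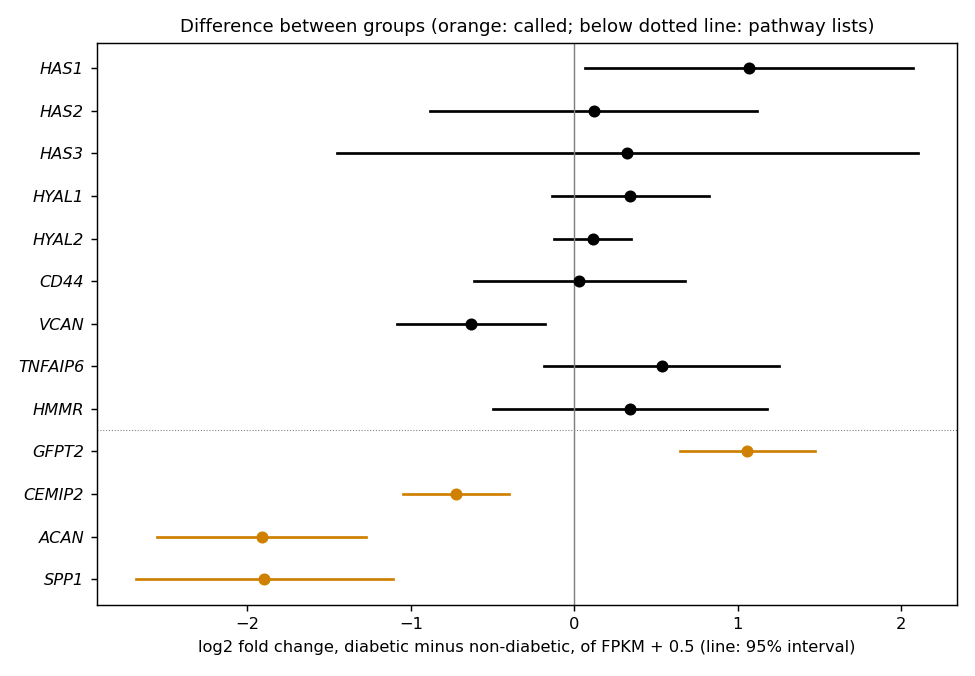
Points give the log2 difference of FPKM + 0.5, diabetic minus non-diabetic, and lines its 95% interval from limma, for the 9 hyaluronan genes that passed the filter and, below the dotted line, for the 4 called genes of the pathway lists. The intervals of HAS1 and VCAN miss 0 before adjustment, and the orange genes GFPT2, CEMIP2, ACAN and SPP1 are those called after adjustment over all 13956 genes.

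Other genes of hyaluronan biology, together with the 16 mitosis genes compared with HMMR, were read from 8 lists with 69 genes. Of these, 57 passed the filter, 1 was called higher and 3 were called lower in diabetic wounds. The median log2 fold change of the 57 was 0.21, beside 0.01 over all genes tested. The mitosis genes, all above 0, had a median of 0.44, and the medians of the other lists ran from -0.40 to 0.26. Groups did not overlap in 5 of the 57, none of them a mitosis gene, or 8.77% against 5.65% of all genes tested. The 4 calls, none of them a mitosis gene, are 7.02% of the 57, against 3.00% of all genes tested. The lists were written with the study's table of significant genes known, so this share is not independent evidence. Precursor supply gave the gene called higher, GFPT2, 1 of the paired enzymes that commit fructose 6-phosphate to UDP-N-acetylglucosamine. GFPT2 (chromosome 2, 78285208 to 78328288, plus strand) had 8.31 to 16.6 FPKM in diabetic wounds, median 11.2, and 5.76, 4.89, 4.63 and 7.12 FPKM in non-diabetic wounds. The groups did not overlap, and the log2 difference was 1.06 (SE 0.19, adjusted p = 0.0124 by limma). Without non-diabetic wound 1, 2 or 3 the adjusted p was 0.0403, 0.0455 or 0.0494. Over 24 alternatives it ran from 0.00605 to 0.179, the highest with replicate number as a fixed block.

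Its paralog GFPT1 had a log2 difference of -0.33 (adjusted p = 0.187 by limma), with 7.59 to 11.3 FPKM against 9.82 to 14.2 FPKM. The other 6 genes of precursor supply were not called. UAP1, the highest of them and the enzyme that makes UDP-N-acetylglucosamine, had 20.9 to 35.7 FPKM in diabetic and 18.8 to 23.5 FPKM in non-diabetic wounds. UGDH, which makes UDP-glucuronic acid, had a log2 difference of -0.06 (SE 0.17).

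Of 8 genes listed as other degradation, 6 passed the filter, 1 was called lower and 0 were called higher. The called gene was CEMIP2 (chromosome 1, 224960875 to 225042378, minus strand), a transmembrane hyaluronidase that the values list under its older symbol TMEM2. It had 9.56 to 15.8 FPKM in diabetic wounds, median 12.7, and 20.3, 19.0, 23.3 and 21.5 FPKM in non-diabetic wounds, with no overlap. The log2 difference was -0.72 (SE 0.15, adjusted p = 0.0224 by limma). Leaving out diabetic wound 3 or non-diabetic wound 1, 3 or 4 raised the adjusted p to between 0.0502 and 0.0797, with log2 differences of -0.74 to -0.68. Over all 24 alternatives the adjusted p ran from 0.00510 to 0.345, the highest with replicate number as a fixed block.

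CEMIP, the secreted hyaluronan depolymerase of fibroblasts, had 3.25 to 6.05 FPKM in diabetic wounds, median 4.38, and 6.96, 6.80, 5.72 and 16.8 FPKM in non-diabetic wounds. The groups overlapped only through diabetic wound 3 and non-diabetic wound 3. Its log2 difference of -0.85 (SE 0.27) had an adjusted p of 0.112 by limma and an exact permutation p of 0.00909. HYAL3 differed by 0.33 (adjusted p = 0.160 by limma). HEXA, a lysosomal hexosaminidase subunit and the most abundant of the list, had 78.1 to 151 FPKM in diabetic and 82.2 to 145 FPKM in non-diabetic wounds. HYAL4 and SPAM1 did not pass the filter.

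Among 6 other receptors and clearance genes 5 passed the filter and 0 were called. STAB1, a scavenger receptor that clears hyaluronan and the most abundant of them, had 29.0 to 82.4 FPKM in diabetic and 26.1 to 53.4 FPKM in non-diabetic wounds. LAYN, a C-type lectin that binds hyaluronan, did not overlap between groups, with 4.60 to 7.95 FPKM against 3.78 to 4.54 FPKM, a log2 difference of 0.54 and an adjusted p of 0.0699 by limma. LYVE1, the receptor of lymphatic endothelium, differed by 0.14 (SE 0.28). Macrophages also express STAB1, and the summed macrophage markers without LYZ, with 3 of 12 called higher, ran from 756 to 1723 FPKM in diabetic and 492 to 915 FPKM in non-diabetic wounds. Their part in these values was not tested.

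Of 10 other link proteins, lecticans and binders, 6 passed the filter, 1 was called lower and 0 were called higher. ACAN (chromosome 7, 54449830 to 54520606, plus strand) encodes aggrecan, a lectican that binds hyaluronan as versican does. Non-diabetic wounds had 4.30, 1.67, 1.97 and 0.935 FPKM. Diabetic wounds had 0.0467 to 0.580 FPKM, median 0.0919, with 12 to 144 reads, and the groups did not overlap.

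The log2 difference of ACAN was -1.91 (SE 0.29, adjusted p = 0.00479 by limma). Its size depends on the pseudocount, with -3.10 at a pseudocount of 0.1, -1.37 at 1 and -3.98 by voom on recovered reads. Over 23 alternatives the adjusted p ran from 0.00279 to 0.145, the highest with replicate number as a fixed block. ACAN passed the filter through the 4 non-diabetic wounds and 1 diabetic wound, and 817 of its bases overlap HAPLN3 on the opposite strand, a gene at 3.65 to 10.8 FPKM. Of 8 cartilage markers only SOX9, which skin also expresses, passed the filter, with 0.537 to 8.82 FPKM in diabetic and 0.711 to 8.68 FPKM in non-diabetic wounds. The other 7 were each at most 0.346 FPKM and summed to 0.382 to 0.758 FPKM against 0.339 to 0.874 FPKM. COL2A1, the defining cartilage collagen, had 0.00722 to 0.0406 FPKM in diabetic and 0.0398 to 0.0895 FPKM in non-diabetic wounds, ranges that barely overlapped. C1QBP, a mitochondrial and cell surface protein that binds hyaluronan and the most abundant of the list, had 28.1 to 54.5 FPKM against 25.5 to 32.8 FPKM. PTX3, a pentraxin that cross-links hyaluronan with TSG-6, had 3.51 to 13.2 FPKM against 3.60 to 4.68 FPKM and was not called.

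Of 6 inter-alpha-inhibitor chains 3 passed the filter and 0 were called. ITIH5, the most abundant, had 6.38 to 20.8 FPKM in diabetic and 11.5 to 19.2 FPKM in non-diabetic wounds. Of 6 ADAMTS proteases that cleave versican 5 passed and 0 were called, with log2 differences from -0.24 to 0.10. ADAMTS4, the most abundant, had 25.2 to 59.5 FPKM against 28.3 to 48.0 FPKM.

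Of 9 linkers and partners of CD44, 8 passed the filter, 1 was called lower and 0 were called higher. SPP1 (chromosome 8, 131077786 to 131085334, minus strand) encodes osteopontin, a secreted phosphoprotein that binds integrins and CD44. Diabetic wounds had 18.3 to 52.0 FPKM, median 37.6, and non-diabetic wounds had 92.5, 147, 71.1 and 180 FPKM, with no overlap. The log2 difference was -1.90 (SE 0.36, adjusted p = 0.0160 by limma). Without non-diabetic wound 2 the adjusted p was 0.0543, and without non-diabetic wound 4 it was 0.0554. Over 24 alternatives it ran from 0.00649 to 0.138, the highest with replicate number as a fixed block.

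The linkers that tie CD44 to actin were not called. EZR, ezrin, had 26.5 to 86.8 FPKM in diabetic and 24.7 to 72.3 FPKM in non-diabetic wounds, RDX, radixin, had 10.7 to 23.9 against 17.0 to 26.4 FPKM, and MSN, moesin, had 77.6 to 108 against 95.6 to 119 FPKM. MMP14, a membrane protease that sheds CD44 and the most abundant gene of all 8 lists, had 229 to 581 FPKM against 449 to 887 FPKM. SRGN, serglycin, a proteoglycan of leukocyte granules that binds CD44, had 72.1 to 115 FPKM against 49.0 to 89.4 FPKM, with an adjusted p of 0.0645 by limma.

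**Figure D5:**
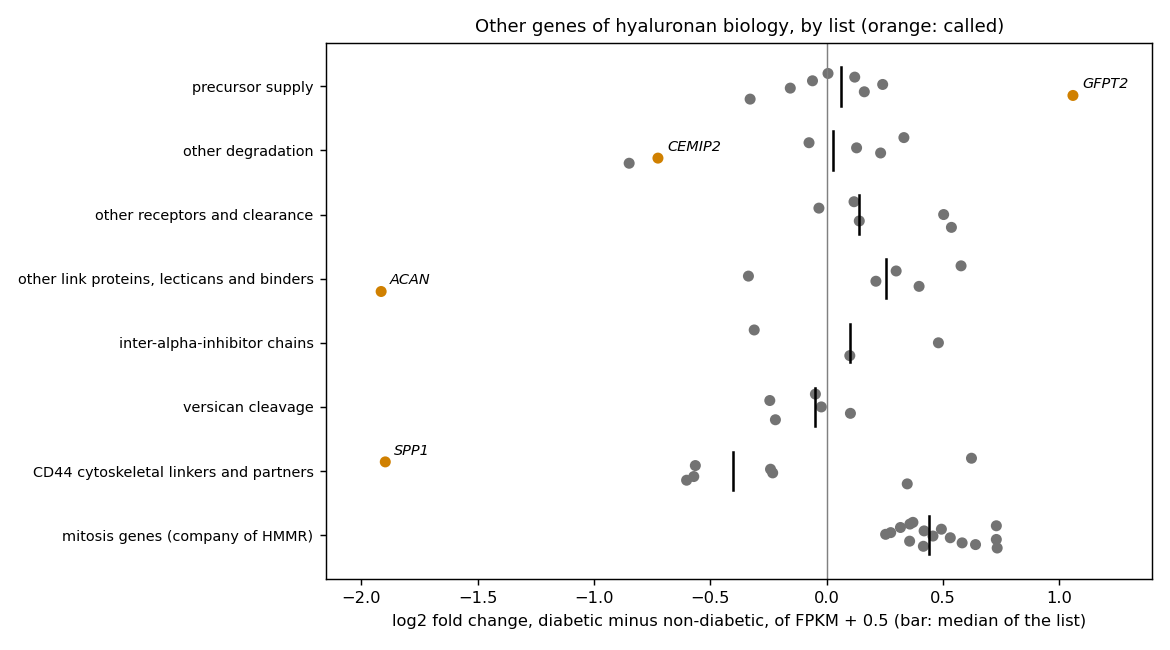
Log2 fold change of FPKM + 0.5, diabetic minus non-diabetic, of the 57 tested genes of the 8 pathway lists, 1 point per gene, with the median of each list as a bar. The called genes GFPT2, CEMIP2, ACAN and SPP1 are orange, and the 16 mitosis genes all lie above 0 without a call.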

How the data were processed

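Per the submitters' processing notes, the authors used fastp, HISAT2 2.2.1 against Sscrofa11.1, StringTie 2.2.3 and featureCounts 2.0.6, and they deposited FPKM values for 30376 genes. The annotation release, the FPKM formula and the strand setting are not given in the sources used here. Multiplied by gene length, 100.0% of values were whole reads within 0.05 reads, which gave the depth. Genes reaching 0.5 FPKM in 4 or more libraries were tested on log2(FPKM + 0.5), a scale that understates changes of low genes, with limma 3.58.1 in R 4.3.3 (lmFit, eBayes with trend, Benjamini-Hochberg adjustment over 13956 genes), tested on simulated data beforehand. Exact permutation tests and figures used SciPy 1.17.1, numpy 2.4.6, matplotlib 3.10.9 and pandas 2.3.3 under Python 3.11.15. The genes, lists and tests were chosen with earlier results of these data known, including the study's table of significant genes, so no list is independent evidence. Named are all 10 hyaluronan genes and the 2 genes most correlated with each one tested. Every called gene and the most abundant gene of each of the 8 pathway lists are also named. GFPT1, UGDH, CEMIP, HYAL3, LAYN, LYVE1 and PTX3 were named after their values were seen. So were HAPLN3, HAPLN4, EZR, RDX, MSN, SRGN, HYAL4, SPAM1 and the cell type markers. Upstream bases are RefSeq Sscrofa11.1, before the annotated gene starts. Alternatives changed the pseudocount, filter, scaling, library weights, trend, replicate block, library name letter and wounds included, used voom on recovered reads, and, added after seeing the data, a keratinocyte covariate.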

Additional observations from a re-analysis of the deposited data

Results flagged for a closer look

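In 28 groups of wounds, the 7 diabetic or 4 non-diabetic values of each of the 10 hyaluronan genes and the 4 called list genes, the highest and lowest value on the log2 scale were compared with the rest of their group by Dixon's ratio, and 2 stood out, where chance marks about 1 in 20 groups. HAPLN1 was 0.0226 FPKM in diabetic wound 4 and 0 in the other diabetic wounds, a difference of 4 reads. With all the others at 0, any value above 0 has a Dixon's ratio of 1, so this flag says nothing beyond those reads. ACAN was 0.580 FPKM in diabetic wound 6 and 0.0467 to 0.189 FPKM in the other 6 diabetic wounds.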

How the results depend on the processing

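In 24 alternatives to the fit 0 of the 9 tested hyaluronan genes were called, including by voom. The lowest adjusted p by limma was 0.0544 for VCAN and 0.0829 for HAS1, both with library weights. The highest were 0.640 and 0.575, both with replicate number as a fixed block. HAS1, HYAL1, HYAL2, TNFAIP6, HMMR and VCAN kept the sign of their difference in every alternative, with ranges of 0.87 to 1.36, 0.19 to 0.48, 0.05 to 0.16, 0.36 to 0.71, 0.12 to 0.63 and -0.75 to -0.41. HAS2, HAS3 and CD44 did not: with library weights they were -0.11, -0.029 and -0.12, with 1 wound left out they ran from -0.15 to 0.38, from -0.20 to 0.87 and from -0.29 to 0.25, and with the keratinocyte covariate HAS2 was -0.017 and CD44 -0.084. CD44 was also -0.076 with quantile normalization and -0.15 without both wounds that stand apart. The cause was not tested.

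The count of all genes called was 419, with 188 higher and 231 lower. With 1 wound left out it ran from 209 to 482, with 110 to 236 higher and 99 to 246 lower, with library weights it was 822 (406 and 416), and without both wounds that stand apart 212 (112 and 100). Voom on recovered reads called 408. The pathway lists had 4 calls, 7 with library weights. With the replicate block, replicate number as a fixed block, 16 genes were called (11 higher, 5 lower), 0 of them on the pathway lists, and CD44 was -0.11. Same-numbered wounds come from different animals, and their deviations from group means correlated at -0.27, 0.22, 0.07 and -0.48, so the numbers do not pair the wounds. Replicate numbers above 4 exist only in the diabetic group, so those wounds did not enter the group difference in the block fit. Its high adjusted p-values by limma thus rest on fewer wounds. CEMIP2 was not called when scaled by total reads on genes (adjusted p = 0.0784 by limma) or without both wounds that stand apart (0.0573). The exact permutation test put 1 gene, VCAN, under 0.05 with either other pseudocount. Among gene pairs, the count under 0.05 was 1 over 7 diabetic wounds and 0 without wound 4. There, a pair that reached the smallest possible p by itself could not pass.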

Other observations

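Under the filter on low values lay 12 pathway list genes, which were compared as single genes. Of these, 2 had an unadjusted exact permutation p under 0.05, as had 18.1% of the genes tested. STAB2, a clearance receptor of sinusoidal endothelium, had 0.365 to 1.12 FPKM in diabetic and 0.1999 to 0.290 FPKM in non-diabetic wounds without overlap, with an exact permutation p of 0.0182. ITIH2, a heavy chain of inter-alpha-inhibitor, had 0.0306 to 0.283 FPKM against 0 to 0.0513 FPKM, with an exact permutation p of 0.0303. The other 10, HYAL4, SPAM1, NCAN, BCAN, HAPLN2, HABP2, ITIH1, AMBP, ADAMTS20 and ANK3, had exact permutation p-values from 0.109 to 0.924.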
